A study of Mus musculus with 6 samples.

Results

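The genes described are 35 components of Wnt signaling: 8 Wnt ligands, 8 Frizzled receptors, 2 co-receptors, 3 genes of the R-spondin system, 5 secreted antagonists, 5 cytoplasmic regulators and 4 TCF/LEF transcription factors. They were taken by name from a list. On the array a gene was read from the probe set that the platform annotation pairs with exactly 1 symbol, and where several probe sets qualified, from the brightest on average over the 6 arrays. In this way 34 of the 35 genes were measured, out of 19938 genes in all. Tcf7 was not paired with a probe set by this rule and was not analysed here.

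The 6 arrays each hold 1 mammary tumor of a mouse that carries the polyoma middle T oncogene under the mouse mammary tumor virus (MMTV) promoter, which drives the transgene mainly in mammary epithelium. In both groups the tumors were resected at an early stage. The 3 JAM-A-/- tumors (5333, 5346 and 5347, genotype label MMTV-PyMT JAM-A KO) lacked junctional adhesion molecule A, an immunoglobulin-family protein of tight junctions, through a cross with JAM-A null mice. The 3 JAM-A+/+ tumors (5369, 5370 and 5393, genotype label MMTV-PyMT) came from mice that keep the gene, with littermates as the study's controls. The ages of the animals were not given for single arrays. The tissue label of tumor 5347 leaves out the absence of JAM-A, which its title and genotype state. Whether each tumor of a group had its own mouse is not labelled, and the p-values measure only the spread between these tumors, which may be technical. For the SE and p-value, limma draws the spread of each gene toward that of all probe sets.

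Wnt proteins are secreted, lipid-modified ligands that bind Frizzled receptors together with the co-receptors Lrp5 and Lrp6. In the canonical branch this disarms a cytoplasmic complex of Axin, Apc and Gsk3 that otherwise marks β-catenin for destruction, and β-catenin then acts with TCF/LEF factors on target genes such as Axin2, Nkd1, Lef1 and Lgr5. In the mammary gland the pathway is known for its part in ductal branching and in basal progenitor cells, and Wnt1 was identified as a gene activated by MMTV insertions in mouse mammary tumors.

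The deleted gene, F11r, read 5.91, 5.55 and 6.53 on the log2 scale in JAM-A-/- tumors, against 10.1, 10.23 and 10.47 in JAM-A+/+ tumors, and no array went against its label. It fell by 4.27 on the log2 scale (SE 0.24, adjusted p = 0.00667 from limma). Array medians were 6.27, 6.25 and 6.23 in JAM-A-/- tumors and 6.30, 6.34 and 6.28 in JAM-A+/+ tumors. The distance between the quartiles of an array ran from 3.27 in tumor 5369 to 3.74 in tumor 5347. Any pair of arrays correlated across probe sets at 0.979 to 0.991. Over the 19938 genes the deposited values lean upward in JAM-A-/- tumors: 71.8% of genes had a difference above 0, with a median of 0.09. Over all 35557 probe sets 61.3% were above 0, with a median of 0.05. Of these probe sets 1405 met the criteria used below as higher and 1547 as lower. The luminal markers, Krt8 and Epcam among them, had a mean log2 level of 11.47 to 12.05 in the JAM-A-/- tumors, against 11.37 to 11.71 in the JAM-A+/+ tumors, and none of the 5 met the criteria used below. All 5 luminal markers were above 0. Other cell types were present too. Over all genes 71.8% were above 0 and 4.73% met the criteria as higher. Of 8 fibroblast markers 7 were above 0 and 2 met the criteria, with a mean level of 9.58 to 10.1 in JAM-A-/- against 8.99 to 9.81 in JAM-A+/+ tumors. Of 8 basal markers all were above 0 and 2 met the criteria, with 7.75 to 8.05 in JAM-A-/- against 7.48 to 7.78 in JAM-A+/+ tumors. The 2 were Acta2 (difference 0.90) and Cnn1 (0.44). Krt5, Krt14 and Trp63 had differences of 0.08, 0.01 and 0.03, and Krt17, Myh11 and Oxtr had 0.19, 0.17 and 0.07. The endothelial mean was 7.12 to 7.59 in JAM-A-/- against 6.62 to 7.31 in JAM-A+/+ tumors, with 1 of 6 markers meeting the criteria. All 6 were above 0, with a median difference of 0.38. Above 0 were also 5 of 5 macrophage, 2 of 5 T cell and 3 of 5 adipocyte markers. The criteria were met by none of 5 macrophage, 5 T cell and 5 adipocyte markers, by 1 of 5 skeletal muscle markers (Acta1) and by 1 of 2 measured Schwann cell markers (S100b). The median differences of these last lists were larger, 0.66 for skeletal muscle with 5 of 5 above 0 and 0.55 for Schwann cells, with mean levels of 7.51 to 8.47 in JAM-A-/- against 6.53 to 8.03 in JAM-A+/+ tumors for skeletal muscle and of 8.23 to 9.38 in JAM-A-/- against 8.33 to 8.40 in JAM-A+/+ tumors for Schwann cells. In whole tumors fewer cells of a type and less RNA per cell cannot be told apart, and the part of these cell types in the results on Wnt genes was not tested.

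Each gene was compared between genotypes with limma on the log2 values, as JAM-A-/- minus JAM-A+/+. To meet the criteria, a gene needed a fold of 1.3 or more together with an unadjusted p under 0.05. Of the 34 Wnt genes, 2 met the criteria as higher in JAM-A-/- tumors, Fzd2 and Lgr5, against 4.73% of all genes. None met them as lower, against 0.592% of all genes. No Wnt gene passed the Benjamini-Hochberg adjustment in limma, where the background was 0.00502% (F11r alone), while 3 had an unadjusted p under 0.05 (Fzd2, Lgr5 and Dkk2), against 8.16% of all genes. For 7 Wnt genes every JAM-A-/- tumor lay above every JAM-A+/+ tumor (Wnt6, Wnt11, Fzd2, Fzd8, Lgr5, Dkk2 and Dkk3), against 12.4% of all genes. That is more than this share gives over 34 genes, a difference that was not tested. The share was not taken over brighter genes alone. For none did every JAM-A-/- tumor lie below, against 2.55% of all genes. The difference was above 0 for 26 of the 34 (76.5%, against 71.8% of all genes), and the median was 0.11, against 0.09 over all genes. Both the number that met the criteria and the share above 0 were thus near the background of all genes. That background holds 6708 genes among the 40% dimmest probe sets of the array, and the 34 hold none. Without those probe sets 7.04% of 13230 genes met the criteria as higher, 75.5% were above 0 and the median was 0.12.

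**Figure D1:**
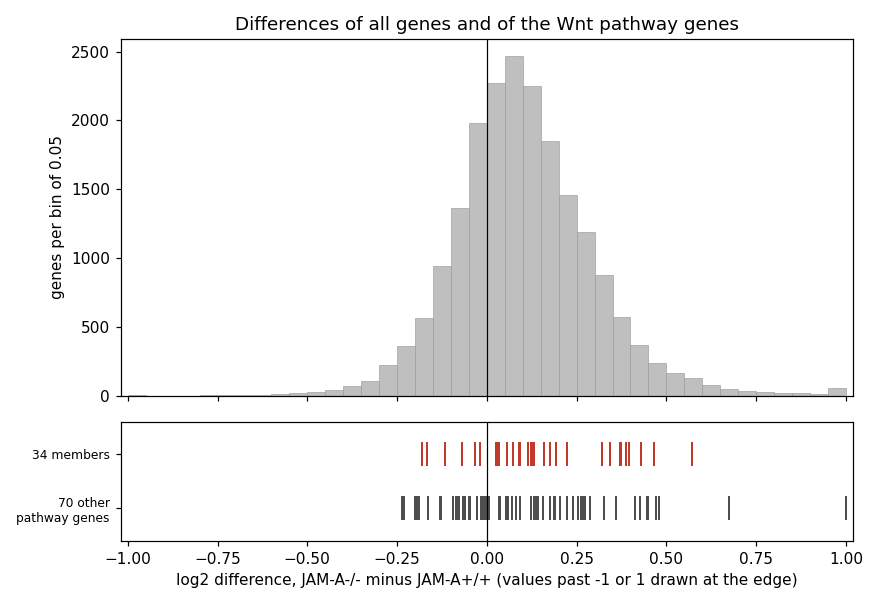
The upper panel counts all 19938 genes by their log2 difference, JAM-A-/- minus JAM-A+/+, in bins of 0.05, and the lower panel marks the 34 Wnt genes and 70 other pathway genes on the same axis, with values past the ends drawn at the edge. The bulk of all genes lies right of 0, and the Wnt genes spread from -0.18 to 0.57 within it.

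The range and SD of the Wnt genes were like those of other genes. Their median range over the 6 tumors was 0.49, against 0.47 over all genes, and their median SD within a group was 0.185, against 0.166. Tumor 5369, a JAM-A+/+ tumor, was the lowest of the 6 for 14 of the 34 Wnt genes (41.2%, against 37.5% of all genes). Tumor 5347, a JAM-A-/- tumor, was the highest for 11 (32.4%, against 43.9% of all genes) and the lowest for 14.7%, against 6.63%. Tumors 5333 and 5346 were each the highest for 26.5%, against 13.6% and 17.4% of all genes. For tumor 5370 this share was 20.6%, against 9.38%. These departures were not tested. None of the 34 probe sets was among the 40% dimmest of the array.

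**Figure D2:**
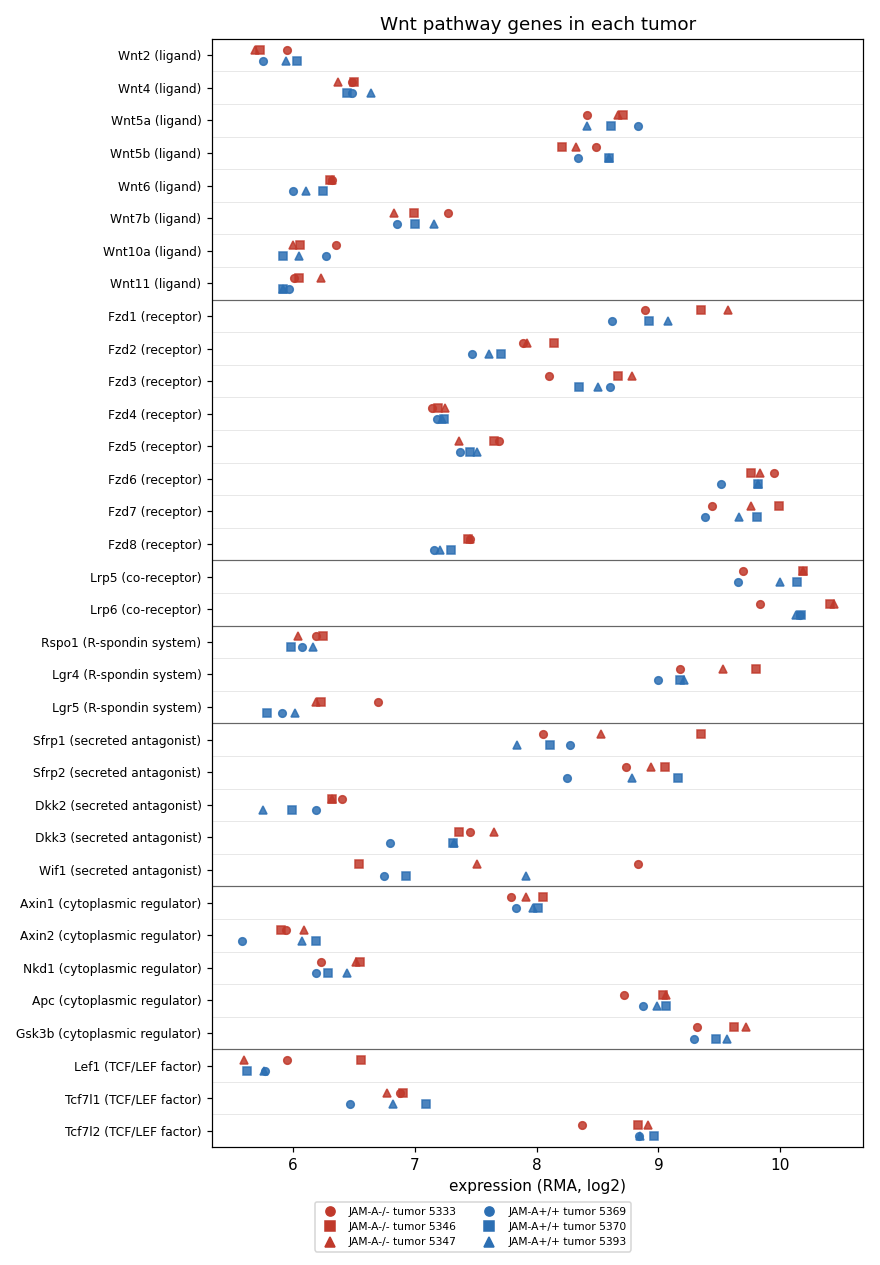
Each symbol is the log2 expression value (RMA) of 1 tumor, in red for JAM-A-/- and in blue for JAM-A+/+, for the 34 measured Wnt genes grouped by role. The colors separate fully for 7 genes and overlap for the others, and Wif1 is scattered most widely, from 6.54 to 8.83.

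The ligands showed no common direction: 4 of the 8 were above 0 and 4 below, with a median difference of 0.00, and none met the criteria. The differences ran from -0.17 for Wnt5b to 0.19 for Wnt6. The mean level of the 8 was 6.80 to 6.91 in the JAM-A-/- tumors, against 6.81 to 6.85 in the JAM-A+/+ tumors. Wnt6 had 6.32, 6.30 and 6.32 in JAM-A-/- tumors and 6.0, 6.25 and 6.11 in JAM-A+/+ tumors (difference 0.19, SE 0.11, unadjusted p = 0.132 from limma). Wnt11, a ligand known mostly for β-catenin-independent signaling, had 6.01, 6.05 and 6.23 in JAM-A-/- tumors and 5.97, 5.92 and 5.92 in JAM-A+/+ tumors (difference 0.16, SE 0.11, unadjusted p = 0.198). These were the only ligands whose groups did not overlap, and both missed the threshold.

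Wnt5a, another ligand of the β-catenin-independent branch, averaged 8.60 ± 0.16 in JAM-A-/- and 8.62 ± 0.21 in JAM-A+/+ tumors (SD, n = 3 each), a difference of -0.02 with a 95% interval from -0.37 to 0.33. Its close relative Wnt5b averaged 8.34 ± 0.14 in JAM-A-/- and 8.51 ± 0.14 in JAM-A+/+ tumors (SD, n = 3 each), with an interval of the difference from -0.47 to 0.14. Wnt4, which acts downstream of progesterone in mammary side branching, had a difference of -0.07 (95% interval -0.34 to 0.20). Wnt4 was the only Wnt gene with a second qualifying probe set, whose values were 5.64, 5.67 and 5.42 in JAM-A-/- tumors and 5.70, 5.53 and 5.44 in JAM-A+/+ tumors, a difference of 0.02. The ligands Wnt2, Wnt7b and Wnt10a had differences of -0.12, 0.03 and 0.06. The intervals of these 3 genes reached 0.42 at most on either side of 0.

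Promoter windows of 300 bases, most of them before a gene's start and the last 50 after it, were listed in RefSeq (GRCm38.p6) for 21 of the 35 Wnt genes, as 29 windows. They were searched on both strands for CTTTGAA and CTTTGAT, the letters that TCF/LEF factors are known to prefer. CTTTGAA was in 0 of the 29 windows, against 5.14% of all 32851 windows, and CTTTGAT in 2, of Wnt5b and Wnt11, against 3.73%. Either was in 8.65% of all windows. The windows of Wnt11 and Dkk2 are printed because the groups did not overlap in both genes and only the first holds a match. Wnt11 had 2 listed windows, and the window with the match was picked for printing, while the other had none. Wnt11 is at chr7:98834862-98835161 and Dkk2 at chr3:132085042-132085341, both on the plus strand and 5′ to 3′. The capitals mark CTTTGAT as read from the minus strand, whose first printed base lies 51 bases before the start. A match describes these letters only.
Wnt11: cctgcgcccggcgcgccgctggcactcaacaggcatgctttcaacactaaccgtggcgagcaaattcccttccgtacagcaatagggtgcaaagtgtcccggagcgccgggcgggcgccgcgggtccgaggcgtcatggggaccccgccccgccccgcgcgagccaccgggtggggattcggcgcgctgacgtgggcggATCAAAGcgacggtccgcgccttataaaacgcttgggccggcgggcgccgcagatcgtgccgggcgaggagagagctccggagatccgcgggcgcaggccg
Dkk2: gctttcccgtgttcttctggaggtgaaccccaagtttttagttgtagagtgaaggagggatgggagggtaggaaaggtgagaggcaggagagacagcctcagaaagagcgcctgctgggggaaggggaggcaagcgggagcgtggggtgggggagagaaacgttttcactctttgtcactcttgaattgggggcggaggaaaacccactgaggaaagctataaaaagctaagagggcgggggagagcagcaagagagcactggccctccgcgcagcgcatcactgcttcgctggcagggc

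The Frizzled receptors lay mostly above 0, as did 71.8% of all genes, with 7 of 8 differences positive and a median of 0.13, against 0.09. Fzd2 met the criteria. Fzd2 had 7.89, 8.14 and 7.92 in the JAM-A-/- tumors, against 7.47, 7.71 and 7.61 in the JAM-A+/+ tumors. Every JAM-A-/- tumor was above every JAM-A+/+ tumor. The difference was 0.39 (a fold of 1.31, SE 0.13, 95% interval 0.09 to 0.68, unadjusted p = 0.0169, adjusted p = 0.386 from limma). It sat just past the fold threshold and fell short of it, at 0.33 and 0.28, after quantile normalization over all or over the listed probe sets. It missed the p threshold without tumor 5346 (0.31, unadjusted p = 0.0657) or without tumor 5369 (0.32, unadjusted p = 0.0559).

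Fzd1 had 8.89, 9.35 and 9.57 in JAM-A-/- tumors and 8.62, 8.92 and 9.08 in JAM-A+/+ tumors, a difference of 0.40 (SE 0.20, unadjusted p = 0.0869). Tumor 5333 lay below 2 of the JAM-A+/+ tumors, and without it the difference was 0.59 (unadjusted p = 0.0124). Without tumor 5347 it was 0.25 (unadjusted p = 0.265) and without tumor 5369 it was 0.27 (unadjusted p = 0.253). Fzd8 was tight in the JAM-A-/- tumors at 7.45, 7.44 and 7.45 and lower in the JAM-A+/+ tumors at 7.16, 7.30 and 7.21, a difference of 0.22 that missed both thresholds (unadjusted p = 0.0699). The groups of Fzd8 did not overlap. Fzd5 and Fzd7, which can signal through β-catenin, had differences of 0.12 and 0.11, and Fzd6, known from hair follicle polarity, had 0.13. Fzd3, best known from axon guidance and planar polarity, had 0.03, and Fzd4, the receptor of Norrin, had -0.02 (95% interval -0.26 to 0.22). The co-receptors Lrp5 and Lrp6 had differences of 0.09 and 0.07, with 95% intervals from -0.35 to 0.53 and from -0.34 to 0.48. After quantile normalization over all probe sets Fzd3, Fzd6, Fzd7, Lrp5 and Lrp6 lay below 0, between -0.14 and -0.05.

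**Figure D3:**
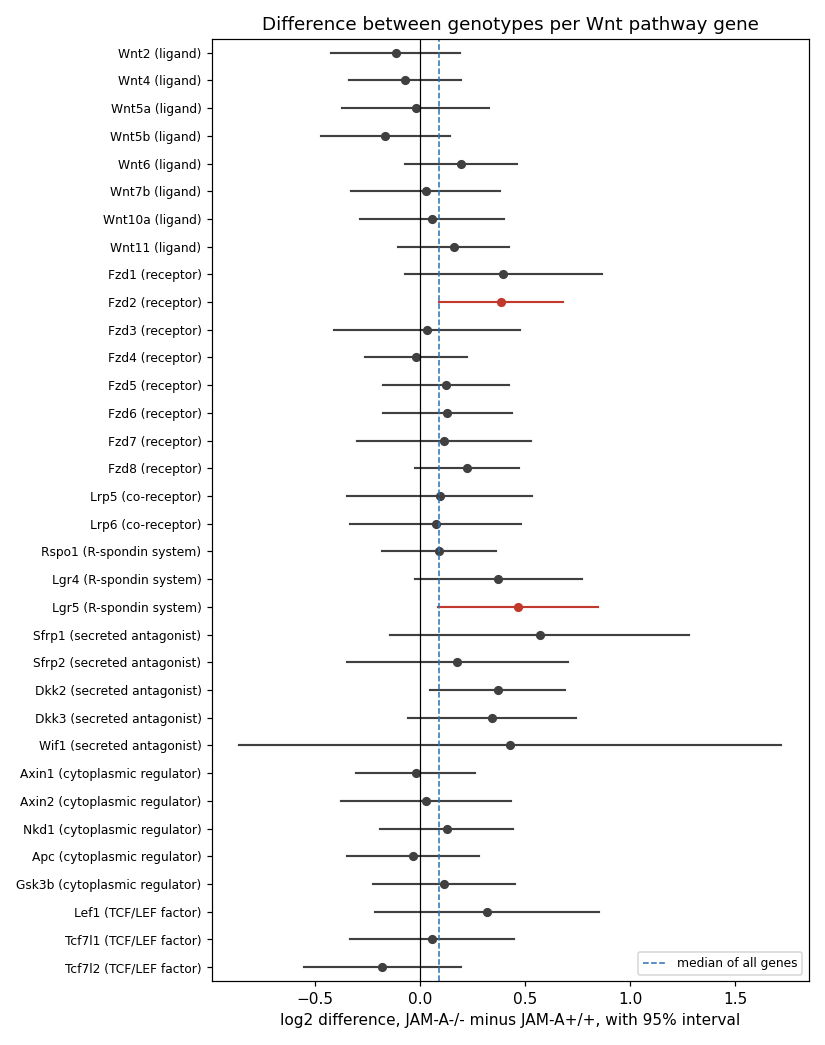
Points are the log2 differences of the 34 Wnt genes, JAM-A-/- minus JAM-A+/+, with 95% intervals from limma, in red for the 2 genes that met the criteria (Fzd2 and Lgr5). The dashed line is the median over all genes, 0.09, and most intervals include both it and 0.

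The R-spondin system, in which secreted R-spondins bind Lgr receptors and keep Frizzled receptors at the cell surface, had 3 listed and measured genes, Rspo1, Lgr4 and Lgr5. All 3 were above 0, as were 71.8% of all genes, with a median difference of 0.37, against 0.09 over all genes. Of 6 further genes of the system (Rspo2, Rspo3, Rspo4, Lgr6, Znrf3 and Rnf43), 3 were above 0 and 3 below, with a median of 0.045, and none met the criteria. However, 3 of these 6 (Rspo2, Rspo3 and Rspo4) were among the 40% dimmest probe sets of the array, against 0 of the 3 listed genes. The brighter Lgr6, Znrf3 and Rnf43 had differences of -0.06, 0.27 and 0.14. The mean level of the 3 listed genes was 7.25 to 7.43 in the JAM-A-/- tumors, against 6.98 to 7.13 in the JAM-A+/+ tumors. These means did not overlap, but of the 3 single genes only Lgr5 had groups apart. How often means of 3 genes separate was not tested. Lgr5, a receptor of R-spondins and itself a target gene of the pathway known as a stem cell marker, had 6.70, 6.23 and 6.19 in JAM-A-/- tumors and 5.91, 5.79 and 6.02 in JAM-A+/+ tumors. Its groups did not overlap, and tumor 5333 stood highest. The difference was 0.47 (a fold of 1.38, SE 0.16, 95% interval 0.09 to 0.85, unadjusted p = 0.0223, adjusted p = 0.405 from limma). It missed the p threshold without tumor 5333 (0.30, unadjusted p = 0.0503) or without tumor 5370 (0.41, unadjusted p = 0.0744).

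Lgr4, the related receptor, had 9.18, 9.80 and 9.53 in JAM-A-/- tumors and 9.0, 9.18 and 9.21 in JAM-A+/+ tumors. Tumor 5333 overlapped the JAM-A+/+ range, and the difference of 0.37 missed the threshold (SE 0.17, unadjusted p = 0.0628). The difference was 0.54 without tumor 5333 (unadjusted p = 0.0082) and 0.23 without tumor 5346 (unadjusted p = 0.213). Rspo1, a ligand of these receptors, had a difference of 0.09 (95% interval -0.18 to 0.36).

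The 5 listed secreted antagonists were all above 0, as were 71.8% of all genes, with a median difference of 0.37, and none met the criteria. Of the 11 other antagonists measured, 5 were above 0 and 6 below, with a median of 0.00 and 1 that met the criteria. However, 5 of these 11 were among the 40% dimmest probe sets of the array, against 0 of the listed 5. The lists thus differ in brightness. The brighter Kremen1, Kremen2, Sost, Apcdd1, Sostdc1 and Sfrp4 had differences of 0.47, 0.0067, 0.0033, -0.0033, -0.13 and -0.23. Whether the other antagonists lack the shift was not tested. The mean level of the listed 5 was 7.72 to 7.89 in the JAM-A-/- tumors, against 7.25 to 7.52 in the JAM-A+/+ tumors. Dkk2, of a family that blocks Lrp5 and Lrp6, had 6.40, 6.32 and 6.32 in JAM-A-/- tumors and 6.19, 5.99 and 5.75 in JAM-A+/+ tumors. The groups did not overlap, and the JAM-A-/- tumors lay closer together. The difference of 0.37 (SE 0.14, 95% interval 0.05 to 0.69, unadjusted p = 0.0295, adjusted p = 0.42 from limma) is a fold of 1.29, just short of the criteria. Dkk2 met them after quantile normalization over all probe sets (0.42), after centring each array on its median (0.43) and with array weights (0.385). Without tumor 5369 it met them too (0.48, unadjusted p = 0.0108), and without any other single tumor its unadjusted p was 0.052 to 0.112.

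Dkk3, a divergent member of the Dkk family, had 7.45, 7.36 and 7.65 in JAM-A-/- tumors and 6.80, 7.31 and 7.32 in JAM-A+/+ tumors (difference 0.34, unadjusted p = 0.0828). The groups were apart by 0.04 between their nearest tumors, and tumor 5369 was the lowest. Without tumor 5369 the difference of Dkk3 was 0.17 (unadjusted p = 0.263), and with array weights it was 0.20. Sfrp1, a decoy that binds Wnt proteins, had 8.05, 9.35 and 8.53 in JAM-A-/- tumors and 8.27, 8.11 and 7.84 in JAM-A+/+ tumors. This was the highest difference of the 34, 0.57, with an SE of 0.31 (unadjusted p = 0.102). It rested on tumor 5346: the difference was 0.22 without it and 0.87 without tumor 5333 (unadjusted p = 0.0136). With array weights Sfrp1 met the criteria at 0.98 (unadjusted p = 0.00874). Sfrp2, of the same decoy family, had a difference of 0.18 (95% interval -0.35 to 0.70).

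Wif1, another secreted protein that binds Wnt ligands, varied most. It had 8.83, 6.54 and 7.51 in JAM-A-/- tumors and 6.75, 6.93 and 7.91 in JAM-A+/+ tumors, and the range of 2.29 over the 6 tumors was wider than that of 99.6% of all genes. The difference of 0.43 was within the spread (SE 0.56, unadjusted p = 0.462). It was -0.17 without tumor 5333 and 0.97 without tumor 5346. Sfrp1 and Wif1 were thus in opposite order in the JAM-A-/- tumors, with tumor 5346 the highest for Sfrp1 and the lowest for Wif1.

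**Figure D4:**
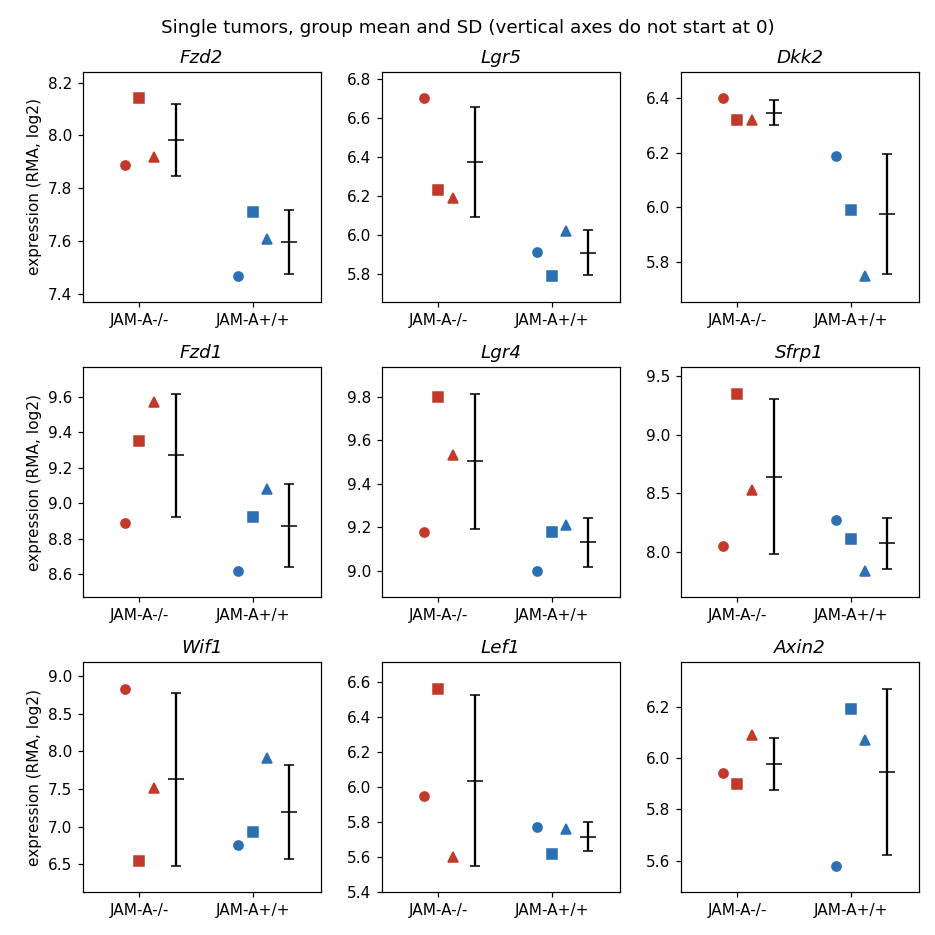
Log2 expression values (RMA) of single tumors for 9 Wnt genes, JAM-A-/- in red and JAM-A+/+ in blue, with the mean and SD of each group (n = 3) beside them on axes that do not start at 0. The groups are apart for Fzd2, Lgr5 and Dkk2, overlap for the others, and Wif1 and Sfrp1 have the widest bars in the JAM-A-/- tumors.

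Among the cytoplasmic regulators no gene met the criteria and the median difference was 0.03. Axin2, a scaffold of the destruction complex and the most widely used target gene of β-catenin, had 5.94, 5.90 and 6.09 in JAM-A-/- tumors and 5.58, 6.19 and 6.07 in JAM-A+/+ tumors. The JAM-A-/- tumors lay inside the JAM-A+/+ range, and the difference was 0.03 with a 95% interval from -0.37 to 0.43. Axin1, Apc and Gsk3b, the other parts of that complex, had differences of -0.02, -0.03 and 0.11. Nkd1, an inhibitor of Dishevelled and also a target gene, had 0.13 (95% interval -0.19 to 0.44).

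Of the TCF/LEF factors, Lef1 had 5.95, 6.56 and 5.60 in JAM-A-/- tumors and 5.77, 5.62 and 5.76 in JAM-A+/+ tumors, a difference of 0.32 (unadjusted p = 0.203). Tumor 5346 was high and tumor 5347 was the lowest of all 6. The difference of Lef1 was 0.058 without tumor 5346 and 0.54 without tumor 5347 (unadjusted p = 0.0321), and it was 0.61 with array weights (unadjusted p = 0.0227). Tcf7l1, mostly a repressor in the absence of signal, had a difference of 0.06, and Tcf7l2, the main TCF factor of intestinal epithelium, had -0.18 (95% interval -0.55 to 0.19), the lowest of the 34. After quantile normalization over all probe sets the JAM-A-/- tumors lay below the JAM-A+/+ tumors without overlap for Tcf7l2 and Apc, 2 of 34, against 5.1% of all genes. Without tumor 5333 the difference of Tcf7l2 was -0.013, and after quantile normalization over the listed probe sets it was -0.33 (unadjusted p = 0.0169), short of the fold threshold. Of the 4 measured Wnt genes that are themselves TCF targets (Axin2, Nkd1, Lef1 and Lgr5), all were above 0, as were 71.8% of all genes. Of these 4, 1 met the criteria as higher, Lgr5, against 4.73% of all genes.

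Outside the listed genes, 70 of 71 other pathway genes were measured, and 6 met the criteria as higher and 0 as lower, against 4.73% and 0.592% of all genes. An unadjusted p under 0.05 was found for 9, against 8.16% of all genes, and none passed the adjustment in limma. Their median difference was 0.08, against 0.09 over all genes. Of the 70, 22 were among the 40% dimmest probe sets of the array. Without those probe sets 6 of 48 met the criteria as higher, against 7.04% of 13230 genes. Fzd9, a receptor, had 7.55, 8.82 and 8.88 in JAM-A-/- tumors and 7.63, 6.91 and 7.21 in JAM-A+/+ tumors (difference 1.17, SE 0.36, unadjusted p = 0.013, adjusted p = 0.368). The groups overlapped through tumor 5333, and without tumor 5347 the difference was 0.94 with an unadjusted p of 0.0509. Myc, a growth-promoting transcription factor and TCF target, had 9.88, 9.98 and 9.94 in JAM-A-/- tumors and 9.38, 9.61 and 9.37 in JAM-A+/+ tumors (difference 0.48, unadjusted p = 0.00402, adjusted p = 0.29). Ccnd1, the cyclin D1 gene, had 11.18, 11.30 and 11.24 in JAM-A-/- tumors and 10.58, 10.86 and 10.94 in JAM-A+/+ tumors (difference 0.45, unadjusted p = 0.00995, adjusted p = 0.347). The groups did not overlap for either gene, and without tumor 5369 the difference of Ccnd1 was 0.34, under the fold threshold.

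The other pathway genes that met the criteria were Dvl2, a Dishevelled protein that relays the signal from Frizzled (difference 0.45, unadjusted p = 0.0141), Kremen1, a receptor of Dkk proteins (0.47, unadjusted p = 0.0245), and Porcn, the enzyme that adds the lipid to Wnt proteins (0.41, unadjusted p = 0.0191). The values of Porcn were 6.82, 6.83 and 7.22 in JAM-A-/- tumors and 6.52, 6.55 and 6.56 in JAM-A+/+ tumors, so tumor 5347 stood apart from the other JAM-A-/- tumors, and without it the difference of Porcn was 0.28, under the fold threshold. Dvl2 had 0.35, also under it, without tumor 5369. Kremen1 missed a threshold without tumor 5346, 5347 or 5369 (unadjusted p = 0.0504 to 0.0806). The 2 TCF targets that met the criteria, Myc and Ccnd1, were among 13 measured outside the listed genes, of which 12 were above 0 (92.3%, against 71.8% of all genes). After quantile normalization over all probe sets Myc had 0.30, under the fold threshold, and Ccnd1 had 0.25 (unadjusted p = 0.0642). After quantile normalization over the listed probe sets only Fzd9 of the 6 still met the criteria, at 1.03, while Myc and Ccnd1 had 0.29 and 0.24.

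**Figure D5:**
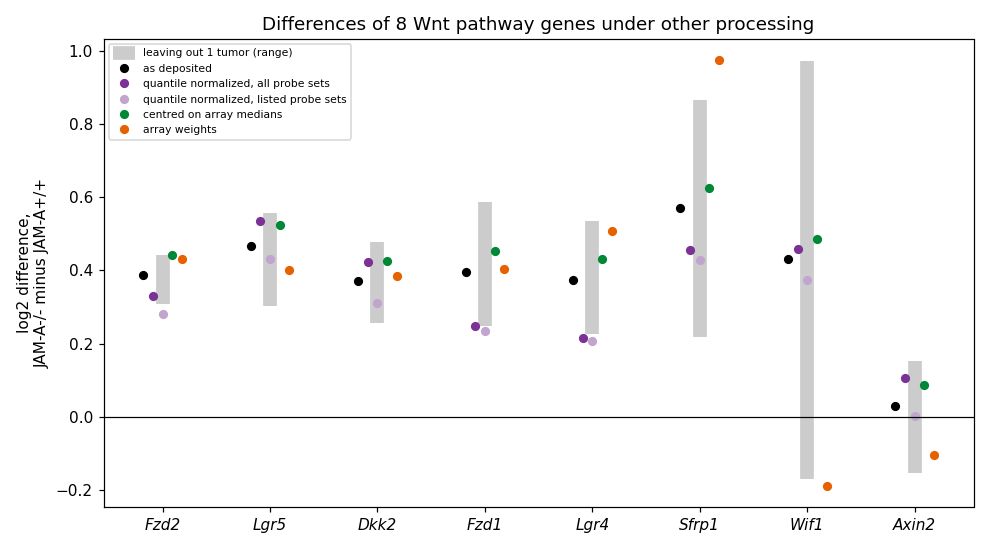
Points are the log2 differences of 8 Wnt genes, JAM-A-/- minus JAM-A+/+, as deposited and under 4 other ways of scaling or weighting the arrays, and grey bars are the range when each tumor was left out in turn. Fzd2, Lgr5 and Dkk2 stayed between 0.26 and 0.56 throughout, while the differences of Wif1 and Axin2 crossed 0.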

How the data were processed

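Each array (Affymetrix Mouse Gene 1.0 ST, one-colour) held the RNA of 1 tumor. The authors deposited log2 expression values for 35557 probe sets, made with RMA in Affymetrix Expression Console 1.1 per the submitters' processing notes. RMA corrects the background, brings the probes of all arrays to 1 distribution and summarises them per probe set, so the total RNA of a tumor leaves no trace in the values. Arrays give no read depth, and their number (3 per group) limits the precision.

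Tumors were grouped by title and genotype. The values were used as deposited and compared with limma 3.58.1 in R 4.3.3 (lmFit and eBayes, no covariate), with Benjamini-Hochberg adjustment over all probe sets, since no test for the arrays was given in the sources used here. The annotation pairs 21789 probe sets with 1 symbol and 1621 with several, and does not list 12147. Of the 21789, 21698 matched RefSeq (GRCm38.p6) by gene ID. The steps were tested on simulated data.

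Genes named are the 35 listed Wnt genes, F11r, other pathway genes that met the criteria, and examples of marker lists. Further genes of the R-spondin system and the brighter other antagonists are named too. Members and lists were chosen with earlier results of these data known. Alternatives were 2 quantile normalizations, centring on array medians, array weights, a robust prior with an intensity trend, leaving out the 40% dimmest probe sets, averaging probe sets, a fold of at least 1.5 and leaving out each tumor.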

Additional observations from a re-analysis of the deposited data

How the results depend on the processing

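No Wnt gene passed the adjustment under any alternative. Of the 34, the number that met the criteria as higher was 2 as deposited, 1 after quantile normalization over the listed probe sets (Lgr5), 4 after centring arrays on their medians (Dkk2, Fzd2, Lgr4 and Lgr5), 7 with array weights, 0 at a fold of at least 1.5 and 1 to 4 with 1 tumor left out. Quantile normalization over all probe sets also gave 2, but Dkk2 in place of Fzd2. No Wnt gene met the criteria as lower under any of them. The groups lay apart as lower for 2 and 3 Wnt genes after the 2 quantile normalizations, against 5.1% and 8.38% of all genes, and for 0 as deposited.

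Over all genes, 944 met the criteria as higher and 118 as lower, so 88.9% of calls were higher. After quantile normalization over all probe sets 570 were higher (76.6% of calls). Over the listed probe sets 359 were higher and 303 lower (54.2%), and the median of all genes was 0.00. With centred arrays 1620 were higher and 66 lower (96.1%), and the median was 0.15. Array weights gave 1309 higher (6.57% of genes) and 204 lower, and a fold of at least 1.5 gave 244 higher and 25 lower. With 1 tumor left out, 502 (without 5369) to 2018 (without 5333) were higher and 90 to 185 lower. Of the other pathway genes, 3 and 1 met the criteria as higher after the 2 quantile normalizations, 1 at a fold of at least 1.5, and 3 to 13 with 1 tumor left out, while 0 to 1 were lower. F11r had -4.54 to -4.05 with 1 tumor left out, and its adjusted p was above the threshold without tumor 5333, 5369, 5370 or 5393 (0.0507 to 0.0839).

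Several Wnt genes that did not meet the criteria as deposited changed sign. After quantile normalization over all probe sets these were Fzd3 (-0.089), Fzd6 (-0.051), Fzd7 (-0.072), Lrp5 (-0.11), Lrp6 (-0.14) and Gsk3b (-0.059). Over the listed probe sets they were Wnt7b (-0.042), Fzd3 (-0.11), Fzd6 (-0.052), Fzd7 (-0.074), Lrp5 (-0.11), Lrp6 (-0.14), Gsk3b (-0.065) and Tcf7l1 (-0.011). With centred arrays they were Wnt5a (0.037), Fzd4 (0.037), Axin1 (0.037) and Apc (0.023). With array weights they were Wnt5a (0.078), Wnt7b (-0.024), Wif1 (-0.19), Axin1 (0.024), Axin2 (-0.10) and Tcf7l1 (-0.016). With 1 tumor left out the differences ran from -0.12 to 0.087 for Wnt5a, -0.093 to 0.13 for Wnt7b, -0.05 to 0.15 for Wnt10a, -0.098 to 0.24 for Fzd3, -0.048 to 0.0067 for Fzd4, -0.017 to 0.26 for Fzd7, -0.047 to 0.26 for Lrp5, -0.033 to 0.27 for Lrp6, -0.063 to 0.39 for Sfrp2, -0.17 to 0.97 for Wif1, -0.087 to 0.043 for Axin1, -0.15 to 0.15 for Axin2, -0.093 to 0.077 for Apc and -0.10 to 0.20 for Tcf7l1. The cause of these changes was not tested. No paired analysis was possible because the labels give no litter or pairing.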
